A study of Mus musculus with 20 samples.

Results

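Genes of the cardiac conduction system were examined by RNA sequencing of whole mouse hearts at E13.5, an embryonic day by which the chambers are formed. The set was chosen by name and holds 8 of the 48795 genes in the expression table: the pacemaker channel gene Hcn4, the transcription factor genes Tbx3 and Shox2, the connexin genes Gja5, Gja1 and Gjc1, and the calcium channel genes Cacna1g and Cacna1d. All 8 were found by their gene identifiers, and all 8 were expressed highly enough to be tested in every fit. On GRCm38 they are Hcn4 (ENSMUSG00000032338) at chr9:58822949-58863175, Tbx3 (ENSMUSG00000018604) at chr5:119670534-119684724, Shox2 (ENSMUSG00000027833) at chr3:66971723-66981771 and Gja5 (ENSMUSG00000057123) at chr3:97032402-97053634. The others are Gja1 (ENSMUSG00000050953) at chr10:56377300-56390419, Gjc1 (ENSMUSG00000034520) at chr11:102799477-102819686, Cacna1g (ENSMUSG00000020866) at chr11:94408391-94474400 and Cacna1d (ENSMUSG00000015968) at chr14:30039941-30491156.

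Hearts of 2 mouse models of Down syndrome were each set against hearts of wildtype (WT) littermates, which gives 4 groups of 5 hearts. Dp3Tyb embryos carry the duplication Dp(16Mir802-Zbtb21)3TybEmcf of a part of chromosome 16, and Ts1Rhr embryos carry Dp(16Cbr1-Fam3b)1Rhr, a shorter duplication of the same chromosome. The study used the pair of strains to ask which expression differences accompany congenital heart defects. All embryos were on a C57BL/6J background, the duplications are germline and so present in every cell type, and none of the 8 genes lies on chromosome 16. Each WT group holds littermates of 1 strain, so the 2 comparisons share no control hearts. The labels mark Ts1Rhr replicates 1 and 2 as having heart defects and replicates 3, 4 and 5 as having none, and all 5 were kept as 1 group by genotype. The label goes against the study's own account of this strain, which it describes as free of such defects.

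The heartbeat starts in the sinoatrial node, a small group of cells where the sinus venosus joins the right atrium. There an inward current through HCN channels and calcium entry through T-type and L-type channels depolarise the cell until it fires, and the impulse then crosses the atria, pauses in the atrioventricular node and runs through the ventricular conduction system. Tbx3 and Shox2 hold node cells in the pacemaker state by repressing genes of working myocardium, and connexins set how fast the impulse passes between cells: Gja5 and Gja1 encode connexins of fast conduction, and Gjc1 encodes the connexin of slowly conducting nodal tissue. These tissues are a small share of a whole heart, and in a bulk library fewer cells of a type cannot be told apart from less RNA per cell.

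Libraries held between 6600839 and 19634514 reads (recovered from the normalised values, which are reads divided by a size factor of the library), and the 8 genes were each covered by at least 78 reads in every library. Reads of mitochondrially encoded genes took between 4.85% and 19.5% of a library and were over 10% in 7 of the 20 libraries. The shallowest library, WT replicate 5 of the Dp3Tyb cohort, also had the highest mitochondrial share, and fold changes that it moved most are given with and without it. The 6 atrial, 5 ventricular and 5 general cardiomyocyte markers listed were above 0 in all 20 libraries. So were the liver markers Alb, Afp and Ttr, so being above 0 does not tell heart from other tissue. The ventricular markers summed to between 131836 and 256675 normalised reads, and the 4 liver markers to between 8.38 and 200. Markers of lung and foregut (6 genes) summed to between 4.57 and 409 in WT littermates of Dp3Tyb, 64.7 and 512 in Dp3Tyb, 122 and 429 in WT littermates of Ts1Rhr and 5.99 and 326 in Ts1Rhr. Of these, Nkx2-1 was at 0 in 4 libraries, Shh in 5, Sftpc in 15, Foxa2 in 2, Cdh1 in 1 and Epcam in 0.

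Promoter sequences are shown for Shox2, Cacna1d and Hcn4, the 3 genes whose levels varied together between hearts. The RefSeq promoters used here (GRCm38.p6) covered 5 of the 8 genes, and Tbx3, Gjc1 and Cacna1g were not analysed for this. Each window covers the 250 bases before an annotated transcription start, written 5′ to 3′ on the strand of the gene. Capitals mark matches, on either strand, to the GC box (GGGCGG) or the TATA box (TATAAA). Neighbouring or overlapping matches form 1 run of capitals.
Shox2, chr3:66981772-66982021, minus strand: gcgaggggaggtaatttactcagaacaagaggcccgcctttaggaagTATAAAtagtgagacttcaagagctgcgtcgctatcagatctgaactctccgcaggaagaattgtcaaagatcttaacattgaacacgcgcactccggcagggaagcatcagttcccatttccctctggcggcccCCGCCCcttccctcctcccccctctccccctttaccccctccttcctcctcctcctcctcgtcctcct
Cacna1d, first start, chr14:30491157-30491406, minus strand: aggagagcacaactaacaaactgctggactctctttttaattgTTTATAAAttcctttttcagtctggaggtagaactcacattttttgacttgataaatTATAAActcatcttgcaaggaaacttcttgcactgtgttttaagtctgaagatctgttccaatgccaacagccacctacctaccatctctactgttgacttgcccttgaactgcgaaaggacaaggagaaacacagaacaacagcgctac
Cacna1d, second start, chr14:30353487-30353736, minus strand: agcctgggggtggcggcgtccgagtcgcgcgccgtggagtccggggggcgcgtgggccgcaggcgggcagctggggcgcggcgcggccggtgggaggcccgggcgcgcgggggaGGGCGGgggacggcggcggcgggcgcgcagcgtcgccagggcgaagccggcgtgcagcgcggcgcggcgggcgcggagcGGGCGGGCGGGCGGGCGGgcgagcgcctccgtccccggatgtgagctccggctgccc
Hcn4, chr9:58822699-58822948, plus strand: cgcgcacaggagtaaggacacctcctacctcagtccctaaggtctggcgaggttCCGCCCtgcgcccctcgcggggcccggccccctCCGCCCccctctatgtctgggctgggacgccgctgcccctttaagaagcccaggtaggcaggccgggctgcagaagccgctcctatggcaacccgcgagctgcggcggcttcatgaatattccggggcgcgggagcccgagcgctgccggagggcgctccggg
The 2 start sites of Cacna1d differ in composition: the first window has 39.6% G and C and 3 TATA box matches, of which 2 overlap on opposite strands, and the second has 86.4% G and C and 5 GC box matches, of which 4 overlap. The Shox2 window (55.6% G and C) held 1 GC box and 1 TATA box match, and the Hcn4 window (71.2% G and C) held 2 GC box matches. The median window over all 32536 RefSeq promoters had 52.4% G and C. A GC box was found in 33.0% and a TATA box in 12.3% of these promoters. The T-box half-site (TCACAC, in 12.1% of promoters), the NK2 homeobox motif (TNAAGTG, in 10.01%) and the GATA motif (AGATAA, in 9.97%) had no match in these 4 windows, which says only that these letters are not there.

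To set the members in order of abundance, values were divided by transcript length in kilobases and averaged over the 10 WT hearts. Connexins of working myocardium lay far above the pacemaker genes. Gja1, the main connexin of ventricular muscle, was highest at 1329 ± 174 normalised reads per kilobase (SD, n = 10), followed by Gja5, the connexin of atrial muscle and ventricular conduction fibres, at 805 ± 89.2. Gjc1 followed at 193 ± 14.4 and Shox2 at 152 ± 36.3. The remaining 4 genes were close together: Hcn4 at 82.3 ± 20.2, Cacna1g at 79.3 ± 24.4, Tbx3 at 78.7 ± 15.5 and Cacna1d at 72.8 ± 6.25. Gja1 exceeded Gja5, and Gja5 exceeded Gjc1, in 20 of 20 libraries. Gjc1 exceeded Shox2 in 16 and Shox2 exceeded Hcn4 in 19 of 20. Hcn4 exceeded Cacna1g in 10 of 20 libraries, Cacna1g exceeded Tbx3 in 6 and Tbx3 exceeded Cacna1d in 14, so the order of the last 4 did not hold beyond the spread between hearts. Some exons are shared with genes on the opposite strand, and whether reads were counted by strand is not given in the sources used here: Tbx3 shares 1468 exon bases with Tbx3os1 (mean value 42.4), Shox2 shares 467 with Rsrc1 (727), Gja5 shares 165 with Gpr89 (402) and Cacna1d shares 1477 with Chdh (6.84).

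**Figure D1:**
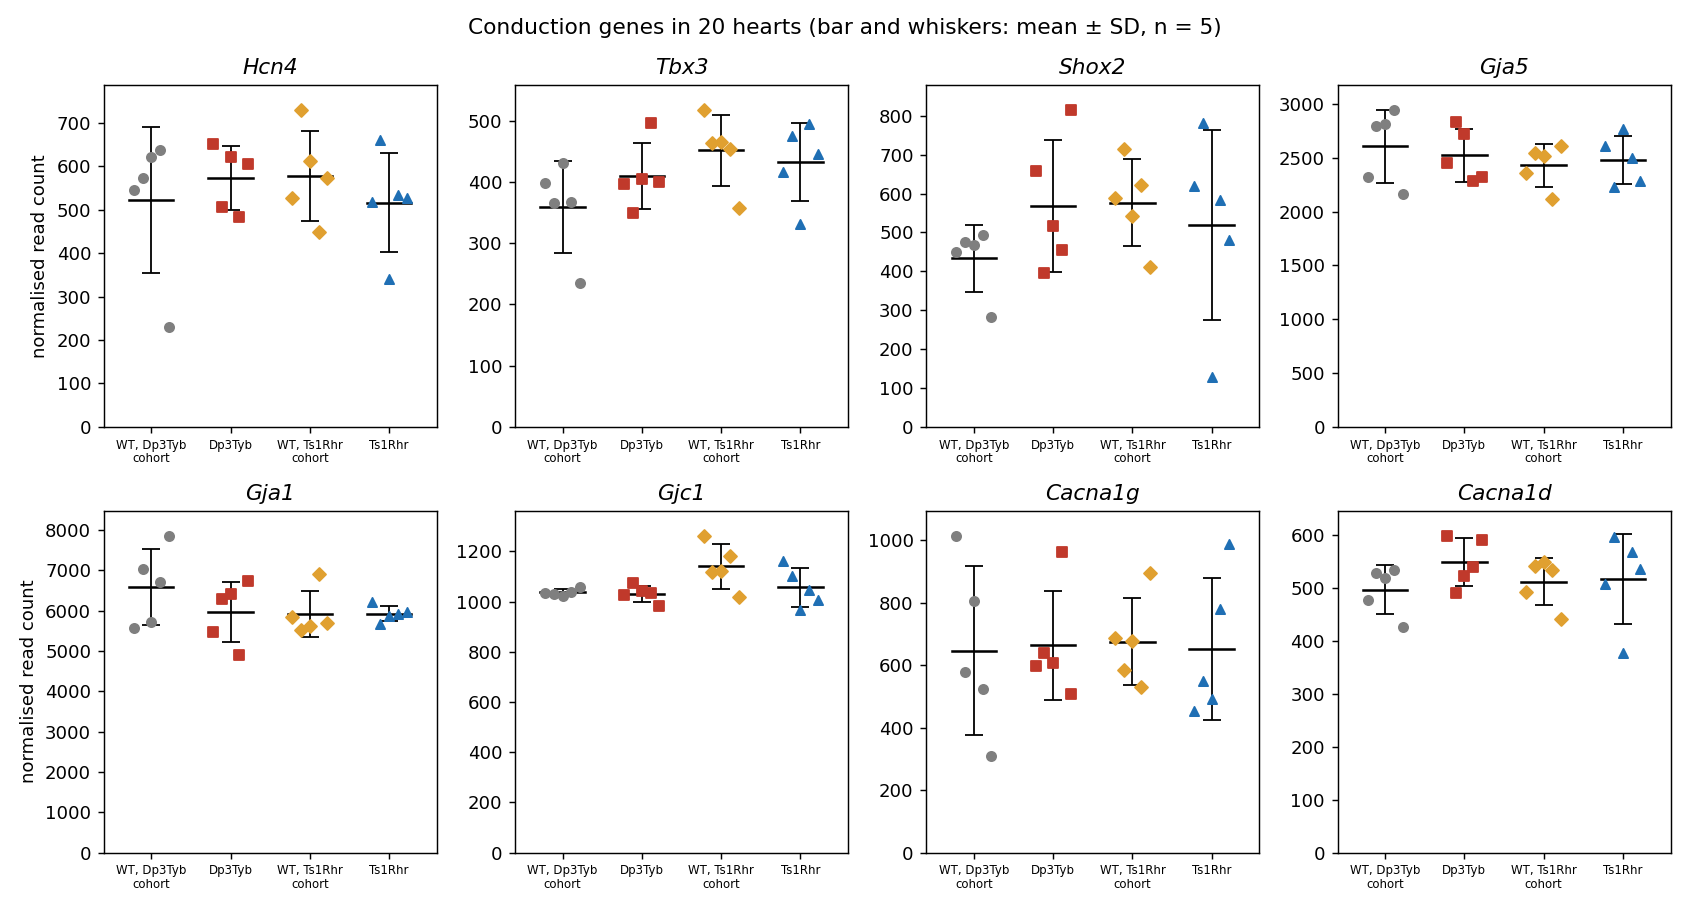
Normalised read count (vertical axis, from 0) of each of the 8 genes in 20 hearts, in 4 groups of 5. Each point is 1 heart, in order of replicate number within a group, and the bar and whiskers give the mean ± SD (n = 5). The mutant and WT hearts overlapped for every gene, and single low hearts stood out for Hcn4 (229 in a WT littermate of Dp3Tyb) and Shox2 (129 in a Ts1Rhr heart).

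The question of interest was whether either duplication altered these genes. No difference was called for any of the 8 genes, in Dp3Tyb or in Ts1Rhr, at an adjusted p under 0.05 (limma on log2 of the value plus 1, Benjamini-Hochberg adjustment over all genes). Of all genes tested, limma called 8 of 14763 (0.0542%) in Dp3Tyb and 4 of 14867 (0.0269%) in Ts1Rhr, so few calls were made anywhere. At an unadjusted p under 0.05 the count was 0 of 8 in both strains, against 2.8% of all genes in Dp3Tyb and 5.52% in Ts1Rhr. Adjusted p-values of limma for the 8 genes were 1.0 in Dp3Tyb and between 0.795 and 0.996 in Ts1Rhr. DESeq2, which called 0.23% and 0.168% of all genes, and edgeR, which called 0.061% and 0.0269%, also called 0 of the 8. For each of the 8 genes the mutant and WT hearts overlapped in both strains, where 0.975% of all genes in Dp3Tyb and 1.12% in Ts1Rhr did not overlap.

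Hcn4 encodes the channel that carries most of the inward current that starts the beat. Its values in replicates 1 to 5 were 545, 574, 622, 639 and 229 in WT littermates of Dp3Tyb and 651, 506, 622, 483 and 606 in Dp3Tyb hearts. WT replicate 5 stood below all other hearts of that cohort, and the other 4 WT hearts lay within the range of the mutants. The log2 fold change was 0.21 (SE 0.25, 95% confidence interval -0.34 to 0.77), and without that heart it was -0.060. In the Ts1Rhr cohort the values were 528, 729, 613, 448 and 573 in WT hearts and 517, 659.9, 341, 533 and 528 in Ts1Rhr hearts. Here Ts1Rhr replicate 3 was lowest and a WT heart highest, with the groups otherwise mixed. Ts1Rhr hearts differed from WT by a log2 fold change of -0.18 (SE 0.17, 95% confidence interval -0.54 to 0.18), or -0.036 without Ts1Rhr replicate 3.

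Shox2, which keeps sinus venosus myocardium in the pacemaker programme by opposing Nkx2-5, spread most of the 8 genes between hearts of 1 group with Ts1Rhr replicate 3 included, and less than Hcn4 and Cacna1g without it. In the Dp3Tyb cohort it reached 449, 475, 468, 494 and 282 in WT hearts and 658, 395, 516, 455 and 814 in Dp3Tyb hearts. Dp3Tyb replicates 1, 3 and 5 lay above every WT littermate, and replicates 2 and 4 lay inside the WT range. The log2 fold change was 0.37 (SE 0.21, 95% confidence interval -0.095 to 0.83), without WT replicate 5 it was 0.22, and without both replicate 5 hearts, whose mitochondrial shares were over 10%, it was 0.077. In the Ts1Rhr cohort the values were 589.5, 715, 541, 622 and 412 in WT hearts and 619, 782, 129, 582 and 482 in Ts1Rhr hearts. Ts1Rhr replicate 3 was far below all other hearts, while Ts1Rhr replicate 2 was the highest of its cohort. The log2 fold change was -0.35 (SE 0.41, 95% confidence interval -1.24 to 0.55), and without Ts1Rhr replicate 3 it was 0.099.

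Tbx3, a repressor that shapes both nodes and the atrioventricular conduction tissue, had values of 399, 365, 430.5, 367 and 235 in WT littermates of Dp3Tyb and 397, 349.8, 405, 497 and 400.0 in Dp3Tyb. One WT heart, replicate 5, was again lowest. This gave a log2 fold change of 0.21 (SE 0.16, 95% confidence interval -0.14 to 0.55), and one of 0.063 without that heart. In the Ts1Rhr cohort it was measured at 517, 464, 466, 454 and 357 in WT hearts and 417, 475, 331, 495 and 447 in Ts1Rhr hearts. Both groups spanned nearly the same range, with Ts1Rhr replicate 3 lowest. Between the groups the log2 fold change was -0.064 (SE 0.12, 95% confidence interval -0.33 to 0.20), and it turned to 0.029 without that heart.

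Cacna1g encodes a T-type channel that opens near the resting potential. Its values were 1014, 579, 806, 526 and 308 in WT littermates of Dp3Tyb and 599, 641, 607, 962 and 509 in Dp3Tyb hearts. The WT hearts alone covered more than the whole mutant range. The log2 fold change was 0.11 (SE 0.29, 95% confidence interval -0.51 to 0.74), without WT replicate 5 it was -0.12, and without Dp3Tyb replicate 4 it was -0.028. WT littermates of Ts1Rhr had 688, 586, 677, 532 and 895 and Ts1Rhr hearts 454, 549, 492, 780.1 and 987. Ts1Rhr replicates 4 and 5 were high and the other 3 low. For this cohort the log2 fold change was -0.092 (SE 0.21, 95% confidence interval -0.54 to 0.36), with -0.26 to 0.022 when 1 heart was left out (above 0 without Ts1Rhr replicate 1 and without WT replicate 5).

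Cacna1d, an L-type channel gene of nodal and atrial cells, varied much less. Values were 478, 528, 520.1, 535 and 426 in WT littermates of Dp3Tyb and 599, 491, 524, 541 and 592 in Dp3Tyb hearts. Here 3 of the 5 Dp3Tyb hearts lay above every WT littermate. A log2 fold change of 0.14 (SE 0.086, 95% confidence interval -0.046 to 0.33) resulted, or 0.089 without WT replicate 5. In the Ts1Rhr cohort WT hearts had 493, 541, 549, 534 and 442 and Ts1Rhr hearts 508, 597, 378, 568 and 536. As for Shox2, Ts1Rhr replicate 3 was lowest and replicate 2 highest. Mutant and WT hearts differed by a log2 fold change of 0.0022 (SE 0.12, 95% confidence interval -0.25 to 0.26), with -0.054 to 0.11 when 1 heart was left out (below 0 without WT replicate 1 or 5, or without Ts1Rhr replicate 2, 4 or 5).

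The connexins, which join cardiomyocytes electrically, were not called in either strain. Gja1 had 5577, 7038, 5729, 6707 and 7851 in WT littermates of Dp3Tyb and 5481, 6286, 6406, 4901 and 6727 in Dp3Tyb, with a log2 fold change of -0.14 (SE 0.12, 95% confidence interval -0.40 to 0.12), or -0.074 without WT replicate 5. In the Ts1Rhr cohort it had 5832, 5517, 5607, 6909 and 5689 in WT and 6206, 5672, 5872, 5916 and 5979 in Ts1Rhr hearts, with a log2 fold change of 0.0088 (SE 0.070, 95% confidence interval -0.14 to 0.16). WT replicate 4 of the Ts1Rhr cohort and WT replicate 5 of the Dp3Tyb cohort were the highest of their cohorts, and these 2 libraries had the highest mitochondrial shares in the series (17.2% and 19.5%), whose part in the result was not tested. Gja5 had 2325, 2794, 2814, 2942 and 2167 in WT littermates of Dp3Tyb and 2457, 2834, 2721, 2286 and 2320 in Dp3Tyb, with a log2 fold change of -0.043 (SE 0.10, 95% confidence interval -0.27 to 0.18). It had 2356, 2547, 2521, 2117 and 2611 in WT littermates of Ts1Rhr and 2608, 2233, 2767, 2499 and 2289 in Ts1Rhr, with a log2 fold change of 0.028 (SE 0.079, 95% confidence interval -0.14 to 0.20). For Gja5 the groups overlapped over nearly their whole range in both cohorts. Leaving out 1 heart turned the direction for Gja5 in Dp3Tyb (-0.11 to 0.0033, without WT replicate 4), for Gja5 in Ts1Rhr (-0.021 to 0.065, without WT replicate 4 or Ts1Rhr replicate 3) and for Gja1 in Ts1Rhr (-0.015 to 0.066, without WT replicate 2, 3 or 5 or Ts1Rhr replicate 1). Gjc1, needed in the embryonic heart for conduction before fast connexins take over, was 1037 ± 13.9 in WT littermates of Dp3Tyb and 1031 ± 32.8 in Dp3Tyb, and 1141 ± 89.7 in WT littermates of Ts1Rhr and 1057 ± 77.6 in Ts1Rhr (mean ± SD, n = 5 each). Its log2 fold changes were -0.0095 (SE 0.050, 95% confidence interval -0.12 to 0.10) in Dp3Tyb (above 0, at 0.0079, without Dp3Tyb replicate 5) and -0.11 (SE 0.073, 95% confidence interval -0.27 to 0.050) in Ts1Rhr. For Gja1 in Dp3Tyb and Gjc1 in Ts1Rhr, 1 of 5 mutant hearts lay above the WT mean. The Dp3Tyb interval for Gjc1 was the narrowest of the 16, and that for Shox2 in Ts1Rhr was the widest.

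**Figure D2:**
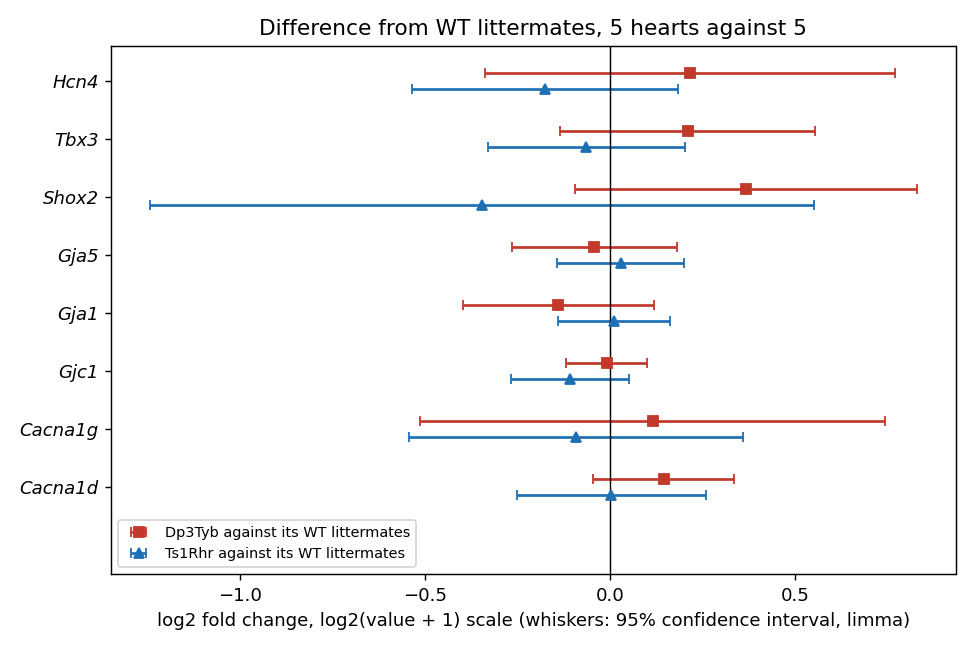
Log2 fold change (horizontal axis, on the log2 of value plus 1 scale) of each gene in Dp3Tyb (squares) and Ts1Rhr (triangles) against their own WT littermates, with 95% confidence intervals from limma (5 hearts against 5). All 16 intervals include 0, from -0.12 to 0.10 for Gjc1 in Dp3Tyb to -1.24 to 0.55 for Shox2 in Ts1Rhr.

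Whether the 2 strains differed from each other was tested by an interaction contrast over all 20 libraries. For the 8 genes the count of calls was 0, and it was 0 at an unadjusted p under 0.05 (limma, where 0.013% of 15348 genes were called and 1.52% had an unadjusted p under 0.05). DESeq2 (0.0195% of all genes called) and edgeR (0.013%) called 0 of the 8 as well. The difference of log2 fold changes, Dp3Tyb minus Ts1Rhr, was 0.71 (SE 0.49, 95% confidence interval -0.31 to 1.73) for Shox2, 0.39 (SE 0.32, 95% confidence interval -0.28 to 1.06) for Hcn4 and 0.27 (SE 0.21, 95% confidence interval -0.16 to 0.70) for Tbx3. For Shox2 it was 0.27 without Ts1Rhr replicate 3, and without WT replicate 5 of the Dp3Tyb cohort it was 0.12 for Hcn4 and 0.13 for Tbx3. Over the 8 genes the median log2 fold change was 0.13 in Dp3Tyb (5 above 0 and 3 below) and -0.078 in Ts1Rhr (3 above 0 and 5 below), against medians of -0.0027 and -0.0016 over all genes tested. These counts rest on single hearts: without WT replicate 5 the Dp3Tyb median was -0.031 (3 above 0 and 5 below), and without Ts1Rhr replicate 3 the Ts1Rhr median was 0.0027 (4 above 0 and 4 below).

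Ratios within a library do not depend on its scaling, so 3 were compared. The ratio of Gja5 to Gja1 reads, which sets the fast atrial and conduction connexin against the ventricular one, had a geometric mean of 0.397 in WT littermates of Dp3Tyb and 0.425 in Dp3Tyb, and 0.411 in WT littermates of Ts1Rhr and 0.417 in Ts1Rhr. The log2 difference was 0.098 (SE 0.16, exact permutation p = 0.611) in Dp3Tyb and 0.019 (SE 0.12, exact permutation p = 0.913) in Ts1Rhr. Both turned when 1 heart was left out, to -0.033 in Dp3Tyb (without WT replicate 5) and to -0.087 and -0.025 in Ts1Rhr (without WT replicate 4 and without Ts1Rhr replicate 3). The ratio of the T-type gene Cacna1g to the L-type gene Cacna1d differed by -0.029 (SE 0.32, exact permutation p = 0.944) and by -0.095 (SE 0.26, exact permutation p = 0.706). Without 1 heart these ranged over -0.21 to 0.17 (above 0 without WT replicate 1 or 3 or Dp3Tyb replicate 1 or 5) and -0.24 to 0.064 (above 0 without WT replicate 5 or Ts1Rhr replicate 1 or 2). The ratio of Shox2 to Nkx2-5, a transcription factor of working myocardium that Shox2 represses, differed by 0.35 (SE 0.23, exact permutation p = 0.167) in Dp3Tyb and by -0.45 (SE 0.59, exact permutation p = 0.706) in Ts1Rhr. All tests were 2-sided, the adjusted p-value was 0.944 for each of the 6, and the smallest p that 5 against 5 hearts allow is 0.00794. For Shox2 to Nkx2-5, 4 of 5 Dp3Tyb hearts and 3 of 5 Ts1Rhr hearts lay above the mean of their WT littermates. In Dp3Tyb, leaving out 1 heart gave differences from 0.17 (without Dp3Tyb replicate 5, exact permutation p = 0.333) to 0.52 (without Dp3Tyb replicate 2, exact permutation p = 0.0159, unadjusted and the only 1 of 10 under 0.05). Without libraries over 10% mitochondrial reads it was 0.16 (exact permutation p = 0.429). In Ts1Rhr the difference turned to 0.12 without Ts1Rhr replicate 3 (exact permutation p = 0.603), and it lay between -0.68 and -0.38 without any other heart.

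Members differed widely in how much they varied between hearts of 1 group. The spread was measured as the SD of log2 values around the group mean over the 20 libraries. Gjc1 was among the steadiest genes tested, with an SD of 0.0815 at the 5.35th percentile of 15348 genes of all levels. Its log2 deviations ran from -0.069 to 0.058 in the Dp3Tyb cohort and from -0.16 to 0.15 in the Ts1Rhr cohort. Gja5 (0.148), Gja1 (0.156) and Cacna1d (0.171) lay below the median of all genes, 0.224. Tbx3 (0.244, 54.8th percentile) lay near it. Hcn4 (0.39, 78.1st percentile), Cacna1g (0.461, 84.5th) and Shox2 (0.598, 91.6th) lay above it. Part of this rests on single hearts: without WT replicate 5 of the Dp3Tyb cohort the SD of Hcn4 was 0.249 (63.7th percentile), and without Ts1Rhr replicate 3 that of Shox2 was 0.341 (72.4th). Shox2 differed 6.32-fold between its highest and lowest heart, or 2.89-fold without Ts1Rhr replicate 3, and Gjc1 1.31-fold.

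Levels of several members moved together, in 2 patterns. Over 28 pairs of members, 6 had an adjusted p under 0.05 by Pearson's r on deviations from the group mean, and 4 of these also by Spearman's rho (100000 permutations within groups, n = 20, adjusted over 108 relations). The first pattern joined Shox2, Cacna1d and Hcn4, which passed by both r and rho. Shox2 and Cacna1d were most closely related (r = 0.91, permutation p = 6e-05, adjusted 0.00324 and rho = 0.85, permutation p = 0.00012, adjusted 0.00432), and r was 0.91 within the Dp3Tyb cohort (10 hearts), 0.92 within the Ts1Rhr cohort (10 hearts) and 0.81 without the 2 hearts farthest from the median of Shox2. Within the 13 libraries with less mitochondrial RNA r was 0.94, and within the other 7 it was 0.92. Hcn4 varied with Shox2 (r = 0.67, permutation p = 0.00142, adjusted 0.0139 and rho = 0.65, permutation p = 0.00136, adjusted 0.0134) and with Cacna1d (r = 0.70, permutation p = 0.00237, adjusted 0.0197 and rho = 0.69, permutation p = 0.00101, adjusted 0.0109). Without the 2 farthest hearts r was 0.52 for Hcn4 and Shox2 and 0.50 for Hcn4 and Cacna1d. Within cohorts these r lay between 0.74 and 0.79, and within the libraries split by mitochondrial share between 0.79 and 0.92. Tbx3 was related to Shox2 (r = 0.62, adjusted permutation p = 0.0332) and to Cacna1d (r = 0.70, adjusted permutation p = 0.0201), but not by rank (rho = 0.33 and 0.46, adjusted permutation p = 0.484 and 0.225), and without the 2 farthest hearts r was 0.35 and 0.49, so these 2 relations rest partly on hearts with extreme values. Within the 13 and the 7 libraries r was 0.71 and 0.74 for Tbx3 and Shox2. Hcn4 also varied with the atrial cardiomyocyte markers by r (0.64, adjusted permutation p = 0.0202, and 0.47 and 0.79 within the 13 and the 7 libraries), while its rank correlation did not pass (rho = 0.56, adjusted permutation p = 0.0632). For Shox2 and the atrial markers r was 0.27 and rho 0.35 (adjusted permutation p = 0.38 and 0.33). The part of the amount of atrial tissue in this pattern was not tested.

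**Figure D3:**
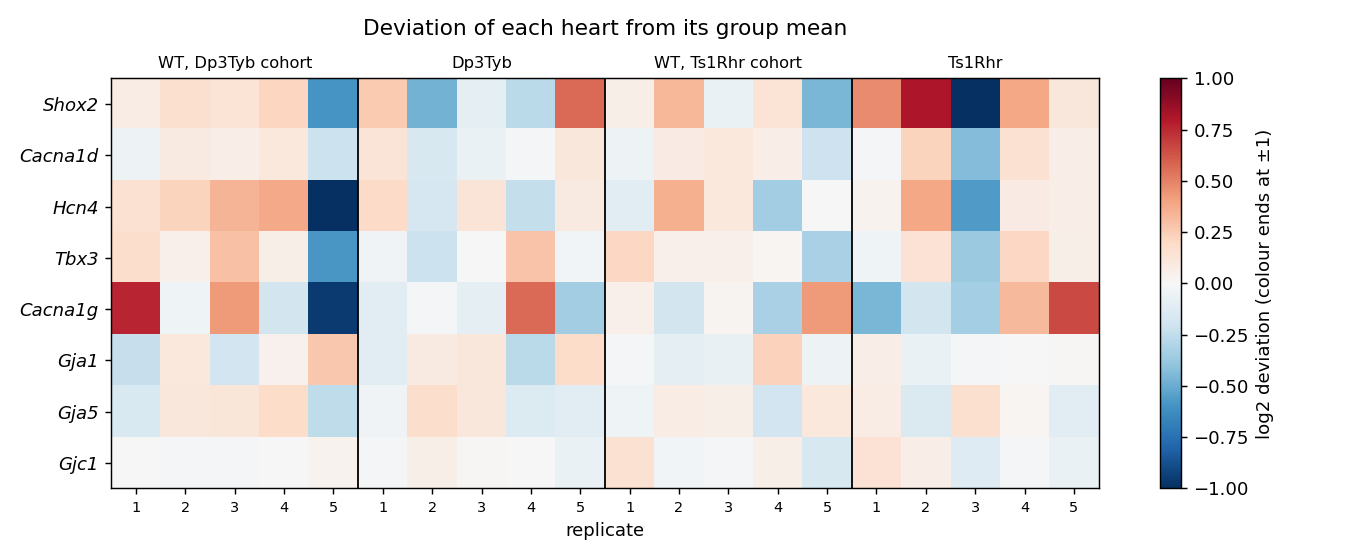
Log2 deviation of each gene from the mean of its group (colour) in each of 20 hearts, ordered by group and replicate, with colours ending at 1 in either direction. Shox2, Cacna1d, Hcn4 and Tbx3 were all low in WT replicate 5 of the Dp3Tyb cohort and in Ts1Rhr replicate 3, and Gjc1 varied least of the 8 genes.

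A Ts1Rhr heart, replicate 3, stood lowest for Shox2 and Cacna1d. It had the lowest value of its group for 5 of the 8 members, Hcn4, Tbx3, Shox2, Gjc1 and Cacna1d, where 27.5% of all genes had their lowest value of the group in that library. The heart was singled out because Shox2 and Cacna1d were low in it, and both are among the 5. The count is therefore a description only. Of the gene lists described further on, 4 of 11 pacemaker channel genes, 5 of 9 of pacemaker transcription and signalling, 2 of 12 of fast conduction and 0 of 2 other connexins were lowest there. Nkx2-5 was at its highest of all 20 hearts, 1527. This library held 16606907 reads, of which 5.50% were mitochondrial, the lowest share of the 10 hearts of its cohort (5.84% to 17.2% in the others). Lung and foregut markers summed to 7.99 in it and to 5.99 in Ts1Rhr replicate 1, where Shox2 was 619. The neural crest and ganglia score (mean log2 deviation from the mean of all hearts) was -1.65 in replicate 3 and -0.88 in replicate 1. The part of such markers in the low values was not tested. In WT replicate 5 of the Dp3Tyb cohort 6 of the 8 members had their lowest value of the group, Hcn4, Tbx3, Shox2, Gja5, Cacna1g and Cacna1d, where 41.1% of all genes did. This heart too stood out by low Hcn4 and Shox2, which are among the 6, so its count is also a description only. The neural crest and ganglia score was -1.64 there, second lowest of the 20 hearts, and its part was not tested.

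The second pattern concerned Cacna1g, which was lower in hearts with more of the general cardiomyocyte markers. Its r with Shox2 was 0.093 (adjusted permutation p = 0.909). Against the score of these 5 markers (Tnnt2, Actc1, Tnni1, Ttn and Myh6) the relation was r = -0.92, permutation p = 1e-05, adjusted 0.00108 and rho = -0.92, permutation p = 1e-05, adjusted 0.00108, where 1e-05 is the smallest p these permutations can give. This r was -0.92 in the Dp3Tyb cohort, -0.96 in the Ts1Rhr cohort and -0.90 without the 2 farthest hearts. Within libraries of low and high mitochondrial share r was -0.95 and -0.70. Cacna1g also varied with markers of neural crest and ganglia (r = 0.82, rho = 0.83, both with an adjusted permutation p under 0.05) and of lung and foregut (r = 0.73, rho = 0.72, likewise), and against the mitochondrial read share (r = -0.72, rho = -0.60, likewise). For the mitochondrial share r was -0.31 within the 13 libraries of low share and -0.80 within the other 7. With arterial endothelial markers r was 0.66 (adjusted permutation p = 0.0206), and 0.24 and 0.64 within libraries of low and high mitochondrial share. Neural crest markers (6 genes) summed to between 109 and 447 in the 20 hearts. Tbx3 was also lower in hearts with more of the ventricular markers, with r of -0.78 and rho of -0.86 with ventricular markers (adjusted permutation p = 0.00499 and 0.00432), and r was -0.78 and -0.88 within libraries of low and high mitochondrial share. It also varied with markers of neural crest and ganglia (r = 0.74, rho = 0.76, adjusted permutation p = 0.00499 and 0.0071) and of lung and foregut (r = 0.62, rho = 0.73, adjusted permutation p = 0.0316 and 0.0109). The part of tissue dissected with the heart in these relations was not tested.

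Gja1 ran against Cacna1g (r = -0.72, permutation p = 0.00087, adjusted 0.0104 and rho = -0.61, permutation p = 0.00732, adjusted 0.0474), with r of -0.90 among Dp3Tyb hearts and their littermates, -0.28 among Ts1Rhr hearts and theirs, and -0.57 without the 2 farthest hearts. Within libraries of low and high mitochondrial share it was -0.60 and -0.72. It varied with ventricular markers (r = 0.75, permutation p = 0.00037, adjusted 0.00499 and rho = 0.70, permutation p = 0.00081, adjusted 0.0109), again more in the Dp3Tyb cohort (0.95) than in the Ts1Rhr cohort (0.22), a difference that was not tested. That r was 0.70 and 0.75 within libraries of low and high mitochondrial share. With the general cardiomyocyte markers r of Gja1 was 0.70 (adjusted permutation p = 0.00499). Gja5 varied with endothelial markers (r = 0.73, permutation p = 0.00164, adjusted 0.0148 and rho = 0.67, permutation p = 0.00699, adjusted 0.0474, and r = 0.78 without the 2 farthest hearts), and r was 0.63 and 0.73 within libraries of low and high mitochondrial share. Its r with atrial markers was 0.68 (adjusted permutation p = 0.0269), and its rho was 0.63 (adjusted permutation p = 0.0546). The mitochondrial read share moved with both connexins by r only, with r = -0.63 (adjusted permutation p = 0.0302) for Gja5 and r = 0.65 (adjusted permutation p = 0.0206) for Gja1, where the adjusted permutation p of rho was 0.163 and 0.0546. Within the libraries of low and high mitochondrial share r was 0.0051 and -0.85 for Gja5 and 0.28 and 0.87 for Gja1. Between Gja5 and Gja1 r was -0.10 (adjusted permutation p = 0.882), but it was 0.63 within the 13 libraries of low mitochondrial share and -0.68 within the other 7, a difference that was not tested.

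**Figure D4:**
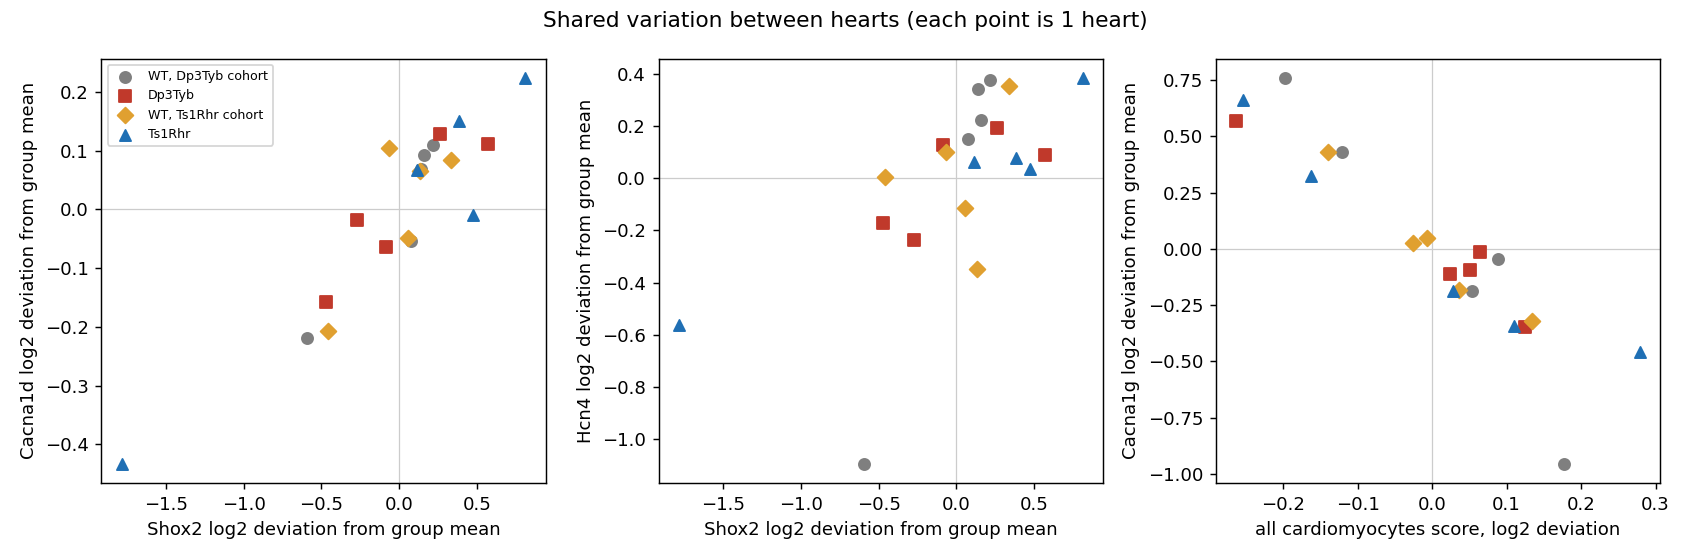
Log2 deviations from the group mean of 2 measures in each heart: Shox2 and Cacna1d (left), Shox2 and Hcn4 (middle), and the general cardiomyocyte score and Cacna1g (right). Each point is 1 of 20 hearts, marked by group. Cacna1d and Hcn4 were lower in hearts with less Shox2 (r = 0.91 and 0.67), and Cacna1g was lower in hearts with a higher cardiomyocyte score (r = -0.92).

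Genes most like each member across the 20 libraries were sought among all tested genes by Pearson's r of deviations from the group mean, as a description only, since the libraries share depth and dissection. Shox2 was most like Cacna1d (0.91), Gad2 (0.90) and Vsnl1 (0.90). Cacna1d was most like Shox2, Gm7729 (0.86) and Wnk3 (0.85). Hcn4 was most like Snph (0.93), Oprk1 (0.87) and Gm12669 (0.86), all 3 at mean values under 37. Among the genes most like Gja5 were Tfcp2l1 (0.93) and Rrad (0.92). Cacna1g was most like the collagen gene Col1a2 (0.98), Cpxm1 (0.97) and Aatk (0.97). Tbx3 was most like Tenm4 (0.95), Ypel1 (0.91) and Wasf3 (0.88). Gja1 was most like Tmem182 (0.89), Arpin (0.89) and Mtus2 (0.89), and Gjc1 was most like Ddias (0.81), Gm37606 (0.81) and Spred2 (0.77).

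Other genes of the conduction system were counted from 4 lists, and none was called in either strain by limma. Among 11 further pacemaker channel genes, 0 of 10 tested in Dp3Tyb and 0 of 11 in Ts1Rhr were called, with 0 and 1 at an unadjusted p under 0.05 (2.8% and 5.52% of all genes) and medians of -0.025 and -0.038. The medians over all genes tested, for this and the next lists, were -0.0027 in Dp3Tyb and -0.0016 in Ts1Rhr. Leaving out 1 heart moved the medians of this list between -0.055 and 0.038 (above 0 without Dp3Tyb replicate 4 and without WT replicate 4) in Dp3Tyb and between -0.080 and -0.0046 in Ts1Rhr. Per kilobase in WT hearts the highest were the sodium-calcium exchanger Slc8a1 (2563 ± 365, SD, n = 10), the calcium channel subunit Cacna2d2 (419.6 ± 70.2), the ventricular L-type channel Cacna1c (372 ± 27.0) and the calcium release channel Ryr2 (267 ± 35.4). Ryr2 had the smallest p in both strains, with log2 fold changes of -0.18 (SE 0.11, unadjusted p = 0.142) in Dp3Tyb and -0.22 (SE 0.095, unadjusted p = 0.0363) in Ts1Rhr (adjusted p 1.0 and 0.795, limma). The second smallest p in Dp3Tyb was that of Cacna2d2, at 0.18 (SE 0.12, unadjusted p = 0.166), with 0.11 to 0.25 when 1 heart was left out. Hcn2 and Hcn3, which encode further HCN channels, were each under 4 per kilobase in WT hearts.

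Among 9 genes of pacemaker transcription and signalling, 0 of 9 were called and 0 of 9 had an unadjusted p under 0.05 in each strain. In Dp3Tyb all 9 log2 fold changes were above 0 (0.019 to 0.22, median 0.13), and in Ts1Rhr 3 were above 0 and 6 below (median -0.056). The count in Dp3Tyb rests partly on single hearts, since leaving out 1 of the 10 hearts left 8 above 0 in 6 cases and 9 in 4, with medians of 0.088 to 0.16. Vsnl1 was below 0 without Dp3Tyb replicate 5, Msx2 without WT replicate 1, and Bmp2 without Dp3Tyb replicate 1 or 3 or WT replicate 2 or 3. In Ts1Rhr 2 to 4 were above 0, with medians of -0.12 to -0.0034 (without Ts1Rhr replicate 5). The highest per kilobase were Id2 (539.8 ± 52.7), an inhibitor of helix-loop-helix factors, Smoc2 (273 ± 55.7), a matrix protein of node cells, the sinus venosus factor Tbx18 (265 ± 31.9) and the calcium sensor gene Vsnl1 (256 ± 61.4). Smallest p-values were those of Id2 at 0.14 (SE 0.065, unadjusted p = 0.0577) and Bmp4 at 0.13 (SE 0.082, unadjusted p = 0.14) in Dp3Tyb, and of Isl1 at -0.38 (SE 0.21, unadjusted p = 0.0979) and Tbx2 at -0.22 (SE 0.16, unadjusted p = 0.192) in Ts1Rhr. Without Ts1Rhr replicate 3 these were -0.25 for Isl1 and -0.11 for Tbx2, and without Ts1Rhr replicate 1 they were -0.25 and -0.13.

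Among 12 genes of fast conduction and its regulators, 0 were called and 0 had an unadjusted p under 0.05 in each strain, with medians of -0.0092 in Dp3Tyb and 0.013 in Ts1Rhr. Leaving out 1 heart moved these between -0.083 (WT replicate 5) and 0.055 (Dp3Tyb replicate 4), and between -0.042 (Ts1Rhr replicate 3) and 0.043 (Ts1Rhr replicate 5). Nppa, a natriuretic peptide gene of atria and trabeculae, was highest (12857 ± 2336), followed by Popdc2 (1542 ± 117), Hopx (981 ± 86.8) and Nkx2-5 (659 ± 101). The smallest p-values were those of Bves at -0.16 (SE 0.087, unadjusted p = 0.0971) and the potassium channel subunit Kcne1 at -0.23 (SE 0.16, unadjusted p = 0.162) in Dp3Tyb, and of Popdc2 at 0.12 (SE 0.088, unadjusted p = 0.198) in Ts1Rhr. Leaving out 1 heart gave 0.040 for Popdc2 (Ts1Rhr replicate 3), -0.14 for Kcne1 (WT replicate 5 of the Dp3Tyb cohort) or -0.14 (Dp3Tyb replicate 1), and -0.10 for Bves (Dp3Tyb replicate 4). Of 10 other connexin genes, only Gja4 (144 ± 32.6), of arterial endothelium, and Gja3 (25.2 ± 5.62) were high enough to be tested. Their log2 fold changes were -0.096 (SE 0.24, unadjusted p = 0.702) and -0.17 (SE 0.15, unadjusted p = 0.289) in Dp3Tyb and -0.044 (SE 0.17, unadjusted p = 0.803) and 0.033 (SE 0.19, unadjusted p = 0.863) in Ts1Rhr. Without 1 heart they ranged over -0.33 to 0.028 (Gja4) and -0.26 to -0.10 (Gja3) in Dp3Tyb. In Ts1Rhr the ranges were -0.17 to 0.065 and -0.062 to 0.20. The next highest, Gjd3 (3.68 ± 2.58) and Gjb5 (2.07 ± 1.34), had at most 11 and 10 reads in a library, and Gjb1 had 0 in all 20.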

How the data were processed

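RNA of 20 whole E13.5 hearts was made into KAPA mRNA HyperPrep libraries and sequenced on an Illumina HiSeq. The authors deposited normalised values, a signal of reads divided by a library size factor: 100% of values were whole multiples of 1 step per library (tolerance 1e-06), and these steps were those of DESeq2's median-of-ratios scaling. The submitters' processing notes name Trimmomatic 0.36, STAR 2.5.2a, RSEM 1.2.31, DESeq2 and GRCm38, without their roles. The strand setting and the annotation are not given in the sources used here. Genotype labels gave the groups. Replicate numbers follow accession order and pair nothing. Within-group libraries differed beyond counting noise in all 40 pairs (mean chi-square per gene from 4.15 upwards). Which hearts share a litter is not given in the sources used here, and p-values measure the spread between these hearts.

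Symbols and canonical transcript lengths came from GENCODE vM39 (44565 of 48795 identifiers, 91.3%), and promoters from RefSeq. The main test was limma 3.58.1 (R 4.3.3; trended, robust) on log2(value + 1), for genes at 10 or more in at least 5 libraries of a fit, 2-sided, Benjamini-Hochberg at 0.05. Fold changes on this scale understate the change of low genes. DESeq2 1.42.0 and edgeR 4.0.16 on recovered whole reads were alternatives, and their calls stand beside those of limma. Ratios were tested by exact permutation over 252 splits, and correlations by permutation within groups (scipy 1.17.1). A marker score is the mean log2 deviation of its genes. Fits were tested on simulated reads with the same dispersion for every gene and no outlying hearts. That test does not show what changes the fits can detect in these genes. Other alternatives were pseudocounts of 0.1 and 10, no filter, TMM scaling, all 20 libraries in 1 fit, terms for mitochondrial share or for the atrial minus ventricular score, leaving out libraries with over 10% mitochondrial reads, and leaving out each replicate. Spreads over the 8 genes, and medians over these and over the lists, without 1 library were added after seeing the data. The 8 genes were chosen by name and lists by role, with earlier results of these data known. From each list, the 4 genes highest per kilobase and the 2 with the smallest p in each strain are named, with the 3 genes most like each member, except for a few genes that are not reported here. Reads are not molecules (no molecular identifiers), so counting error is a lower limit.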

Additional observations from a re-analysis of the deposited data

Results flagged for a closer look

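In 44 groups of 5 hearts (8 genes and 3 ratios in 4 groups), the most extreme heart was set against the others by Dixon's criterion, whose critical value for 5 samples is 0.71. Chance alone flags about 1 in 20 groups, and 4 were found. Hcn4 was 229 in WT replicate 5 of the Dp3Tyb cohort, against 545 to 639 in the other 4 hearts. Shox2 was 282 in the same heart, against 449 to 494. This library had the fewest reads (6600839) and the highest mitochondrial share (19.5%), whose part in these values was not tested. Gja1 was 6909 in WT replicate 4 of the Ts1Rhr cohort, against 5517 to 5832, in a library with a mitochondrial share of 17.2%. The log2 ratio of Shox2 to Nkx2-5 was -3.57 in Ts1Rhr replicate 3, against -1.02 to -0.39 in the other Ts1Rhr hearts, in a library with a mitochondrial share of 5.50%.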

How the results depend on the processing

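No paired analysis was possible because the replicate numbers were given in accession order and the labels carry none that join hearts of different groups. None of the 8 genes was called in any of 69 alternative fits. Of the 552 log2 fold changes these gave, 519 kept their direction and 33 reversed it. Counts of genes called over the whole table moved more. In Dp3Tyb the 8 calls became 4 without a filter, 34 with DESeq2, 17 with all 20 libraries in 1 fit, 45 with a term for mitochondrial share, 19 with a term for the atrial minus ventricular score and 30 without libraries over 10% mitochondrial reads. In Ts1Rhr the 4 calls became 25 with DESeq2, 11 with all 20 libraries, 25 with the mitochondrial term, 1 with the atrial minus ventricular term and 0 without libraries over 10% mitochondrial reads, which leaves 2 WT and 3 Ts1Rhr hearts. For the difference between strains the 2 calls became 0 without a filter and 0 under TMM scaling, and 3 with DESeq2. Leaving out 1 replicate gave 2 to 13 calls in Dp3Tyb, 1 to 6 in Ts1Rhr and 0 to 3 for the difference.

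With the atrial minus ventricular term the log2 fold change was -0.15 for Hcn4, -0.072 for Tbx3, 0.046 for Gja1 and -0.42 for Cacna1g in Dp3Tyb, and -0.11 for Cacna1d and -0.041 for Gja3 in Ts1Rhr. Without libraries over 10% mitochondrial reads it was -0.082 for Hcn4, 0.016 for Gjc1 and -0.038 for Cacna1g in Dp3Tyb, and 0.036 for Tbx3, -0.031 for Gja5, -0.019 for Cacna1d and -0.14 for Gja3 in Ts1Rhr. With the mitochondrial term it was -0.014 for Gja5 and -0.055 for Gja3 in Ts1Rhr, and Gja3 was -0.034 with DESeq2 and -0.029 with edgeR. In Ts1Rhr the atrial minus ventricular term also gave -0.72 for Shox2, -0.40 for Cacna1g and -0.39 for Hcn4, and leaving out libraries over 10% mitochondrial reads gave -0.51 for Shox2 and -0.37 for Hcn4. Over all 20 alternatives, log2 fold changes in Dp3Tyb spanned -0.15 to 0.31 for Hcn4, -0.072 to 0.28 for Tbx3, 0.077 to 0.48 for Shox2, -0.11 to 0.0033 for Gja5, -0.20 to 0.046 for Gja1, -0.024 to 0.016 for Gjc1, -0.42 to 0.30 for Cacna1g and 0.061 to 0.18 for Cacna1d. In Ts1Rhr they spanned -0.39 to -0.036 for Hcn4, -0.16 to 0.036 for Tbx3, -0.72 to 0.099 for Shox2, -0.031 to 0.065 for Gja5, -0.015 to 0.068 for Gja1, -0.15 to -0.068 for Gjc1, -0.40 to 0.022 for Cacna1g and -0.11 to 0.11 for Cacna1d. The causes were not tested.

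Leaving out 1 replicate in Dp3Tyb gave log2 fold changes of -0.060 to 0.31 for Hcn4, -0.12 to 0.30 for Cacna1g, -0.11 to 0.0033 for Gja5, -0.024 to 0.0079 for Gjc1 and -0.33 to 0.028 for Gja4. In Ts1Rhr it gave -0.55 to 0.099 for Shox2, -0.15 to 0.029 for Tbx3, -0.021 to 0.065 for Gja5, -0.015 to 0.066 for Gja1, -0.26 to 0.022 for Cacna1g, -0.054 to 0.11 for Cacna1d, -0.062 to 0.20 for Gja3 and -0.17 to 0.065 for Gja4. For the difference between strains Cacna1g ranged from -0.032 to 0.40. Ratios without 1 replicate ranged from -0.033 to 0.17 (Gja5 to Gja1), -0.21 to 0.17 (Cacna1g to Cacna1d) and 0.17 to 0.52 (Shox2 to Nkx2-5) in Dp3Tyb, and from -0.087 to 0.061, -0.24 to 0.064 and -0.68 to 0.12 in Ts1Rhr. Without libraries over 10% mitochondrial reads the Gja5 to Gja1 difference in Ts1Rhr was -0.10.

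Of the correlations between members, recomputed after seeing the data with deviations from the means of the hearts kept, the one between Shox2 and Cacna1d ranged from 0.83 (without Ts1Rhr replicate 3) to 0.93 (without libraries over 10% mitochondrial reads). In the 13 libraries without high mitochondrial reads those of Tbx3 with Shox2 (0.68, permutation p = 0.0882) and with Cacna1d (0.73, permutation p = 0.0692) were past no threshold.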

Other observations

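The labels divide the Ts1Rhr hearts further, into 2 with heart defects (replicates 1 and 2) and 3 without, and with 2 against 3 hearts no test was made. The label goes against the study's account of the strain, which it describes as free of such defects. Shox2 was 619 and 782 in the hearts marked with defects and 129, 582 and 482 in the others, and Cacna1g was 454 and 549 against 492, 780 and 987. Gja1 was 6206 and 5672 against 5872, 5916 and 5979, and Gjc1 was 1163 and 1102 against 966, 1046 and 1007. Values of the other members stand above by replicate number. Both hearts marked with defects had mitochondrial shares over 10% (11.6% and 13.1%) and the 3 others did not (5.50%, 6.12% and 5.86%), so the label and the mitochondrial share cannot be told apart.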
